A study of Mus musculus with 6 samples.

Results

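The VEGF family was followed across the stromal cells of the mouse gut. Its 8 genes, 5 ligands (Vegfa, Vegfb, Vegfc, Vegfd and Pgf) and 3 receptors (Flt1, Kdr and Flt4), were taken by symbol from the 33697 genes of the count matrices. The cells were live tdTomato+ lamina propria cells, isolated by sorting, of Flare-TSLP mice, C57BL/6 animals whose Tslp locus carries a flox-and-reporter cassette, so that tdTomato marks cells with an active Tslp gene. Of 6 droplet libraries, 2 came from the proximal jejunum, 2 from the distal ileum, and the cecum and large intestine gave 1 each. The labels name no treatment and every library carried the same reporter, so there was no control genotype. The methods give females and males aged 8 to 12 weeks for pooled experiments.

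VEGF ligands are secreted dimers that bind receptor tyrosine kinases on endothelial cells. VEGF-A acts mainly through VEGFR2, the product of Kdr, on blood vessels, while VEGF-C and VEGF-D act through VEGFR3, the product of Flt4, and maintain lymphatic vessels such as the lacteals of the villi. VEGFR1, the product of Flt1, binds VEGF-A, VEGF-B and placental growth factor tightly and also exists as a soluble form that traps them.

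Each cell was assigned to a class from its marker genes, none of which was a family member. This gave 15174 lymphatic endothelial (LEC)-like, 1251 blood endothelial-like, 72091 fibroblast-like, 987 myofibroblast-like and 758 pericyte-like cells among 93558 cells kept. Within the fibroblasts, 4656 cells were telocyte-like, 9087 SEMF (subepithelial myofibroblast)-like, 13356 trophocyte-like, 8829 universal fibroblast-like and 17813 lamina propria fibroblast-like, and 18.7% of fibroblast-like cells lay near the limit of a class. LEC-like cells held Prox1 at 940 to 1211 counts per 1000000 UMIs of the class (CPM) and Lyve1 at 2337 to 3926, while blood endothelial-like cells held Plvap at 1942 to 2456 CPM. Gene UMIs, the molecular tags that count transcripts, ranged from 109675337 to 206827504 per library, and pairs of libraries shared at most 0.609% of the cell barcodes of the smaller one. The tdTomato transcript gave only 301 to 1081 UMIs in a library, so the sort and not the transcript defined the cells. The study removed clusters with almost no tdTomato-positive cells as contaminants, which was not done here. The endothelial class it annotates in these data is lymphatic. Whether blood endothelial-like, immune-like and glia-like cells expressed Tslp or were contaminants of the sort was not tested. Each library carried 3 hashtag antibody tags. The study describes several biological samples per small intestinal tissue and hashtags for multiplexing, so a library probably pools animals, but no source used here says which tag marks which animal, and the tags were left pooled. A library was therefore 1 sample, and p-values measure the spread between libraries.

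Levels are given as CPM of the class in a library, and were compared between classes and regions, not between genes. Classes with under 20 cells in a library were not used there, which left blood endothelial-like cells in 5 libraries (not the cecum) and pericyte-like cells in 5 (not distal replicate 1). Differences are log2 fold changes with their SE, tested by edgeR's quasi-likelihood test and adjusted by Benjamini-Hochberg over all genes.

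The receptors divided the 2 endothelial classes. Flt4 was found at 1182 and 1279 CPM in LEC-like cells of proximal replicates 1 and 2, 1053 and 1211 in distal replicates 1 and 2, 747 for the cecum and 742 for the large intestine. In fibroblast-like cells it was at 4.48 and 8.63, 1.59 and 14.2, 0.349 and 0.368 CPM in the same order. The classes did not overlap, and the large bowel was the low end in both. LEC-like cells held 94.2% to 97.6% of all Flt4 UMIs assigned to a class.

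**Figure D1:**
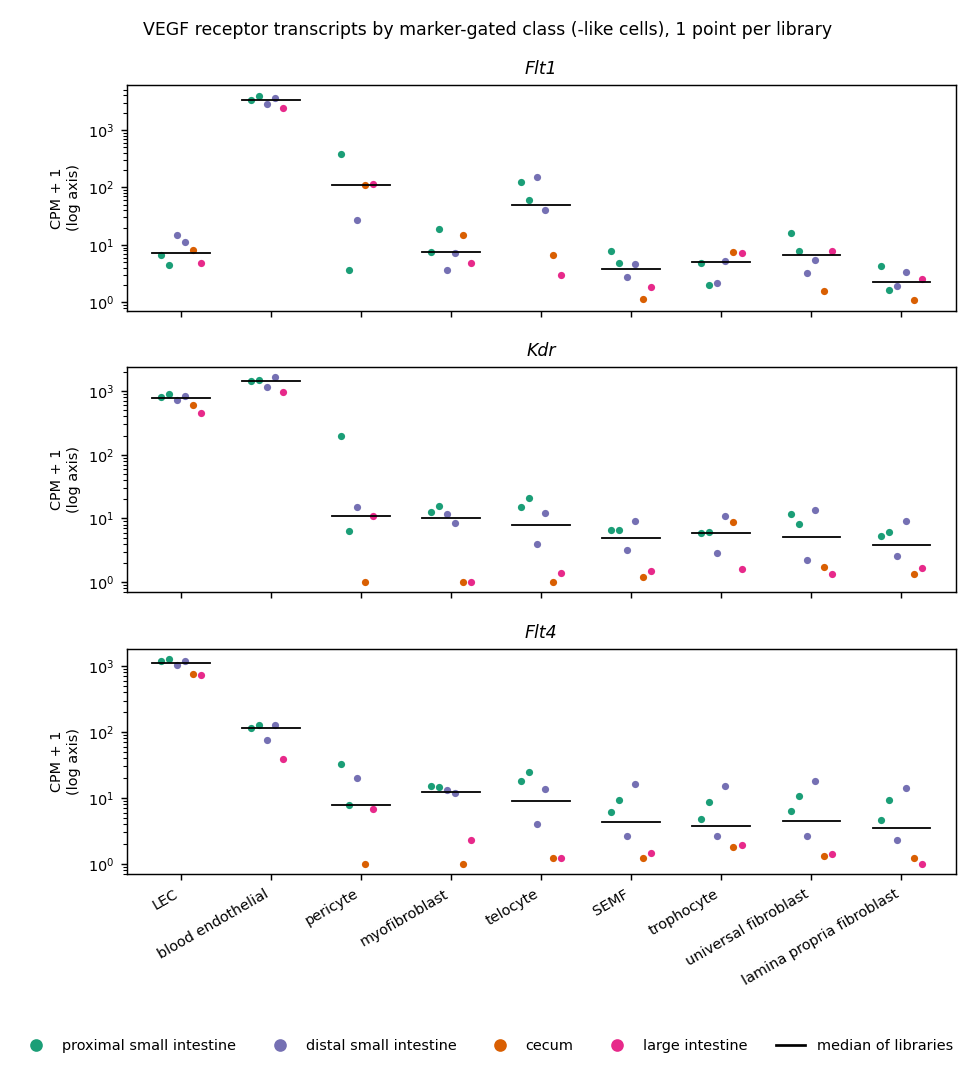
Levels of the receptor transcripts Flt1, Kdr and Flt4 (CPM + 1, log axes) in each marker-gated class, with 1 point per library coloured by region and a line at the median. Flt1 peaks in blood endothelial-like cells, Flt4 in LEC-like cells (742 to 1279 CPM), and Kdr is high in both.

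Kdr, the main signaling receptor of blood vessels, ranged in LEC-like cells from 443 to 910 CPM with a median of 767, against 0.518 to 9.29 in fibroblast-like cells. Of 8 family members, 3 were higher (Kdr, Flt4 and Pgf) and 3 lower (Vegfa, Vegfc and Vegfd) in LEC-like than in fibroblast-like cells, in a comparison that called 67.7% of all genes tested (31.6% higher, 36.1% lower). Kdr was higher by 8.0997 ± 0.54 (adjusted p = 2.97e-06) and Flt4 by 8.72 ± 0.80 (adjusted p = 2.14e-05), each in 6 of 6 libraries. With 10% of each sum subtracted along the free RNA profile the fitted values were 18.39 and 18.91, so the sizes depend on the low fibroblast levels, which are set beside those of free RNA further on. In fibroblast-like cells the subtraction exceeded both levels in every library and left no counts, so these sizes follow from the assumed 10%. The same holds in later comparisons for other levels below 10% of free RNA.

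Both receptors were found in the same cells. A Flt4 UMI was detected in 95.2% to 99.6% of LEC-like cells and a Kdr UMI in 90.0% to 98.3%, and both in 85.5% to 98.0%. In the cecum, where only 227 LEC-like cells were kept, the Flt4 share was 95.2% (exact 95% binomial interval 91.5 to 97.6, counting error only), and in proximal replicate 2 it was 99.6% (99.4 to 99.8) of 5426 cells. For comparison, 0 to 16.9% of immune-like cells, whose median depth was 4127 to 10512 UMIs against 4575 to 7472 in LEC-like cells, had a Flt4 UMI. With every cell thinned to 2500 UMIs the LEC-like share was 83.1% to 95.4%.

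Flt1 was the receptor of the other endothelium. It was at 3342 and 3976 CPM in blood endothelial-like cells of proximal replicates 1 and 2, 2796 and 3655 in distal replicates 1 and 2 and 2409 in the large intestine. LEC-like cells held 3.42 to 13.9 CPM. A Flt1 UMI was found in 99.2% to 100% of blood endothelial-like cells but in 1.76% to 3.45% of LEC-like cells, beside 0 to 4.72% of immune-like cells and no glia-like cell in the 3 libraries where glia-like cells were counted. The LEC-like share was thus within the range of immune-like cells, but VEGFR1 is also known from monocytes and macrophages, so those cells are no class without the receptor.

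Between blood endothelial-like and LEC-like cells 6 of 8 members passed, 3 in each direction, where 57.7% of all genes tested did (29.7% higher, 28% lower). Flt1 was higher in the blood class by 9.05 ± 0.39 (adjusted p = 9.96e-08). Kdr differed by only 0.98 ± 0.08 (adjusted p = 7.67e-06), with 956 to 1642 CPM in the blood class. Flt4 was lower in the blood class by -3.46 ± 0.14 (adjusted p = 8.68e-08) but not absent from it: it ranged from 38.4 CPM in the large intestine to 126 in proximal replicate 2, and 26.2% to 56.5% of blood endothelial-like cells had a Flt4 UMI. In the same cells the 5 LEC markers together summed to 24.3 to 358 CPM, against 15411 to 21528 in LEC-like cells, and Flt4 amounted to 34.8% to 161% of that sum against 3.44% to 8.15% in LEC-like cells.

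Of the neuropilins, the co-receptors, Nrp1 separated the endothelial classes widely and Nrp2 less so. Nrp2, which binds VEGF-C beside VEGFR3, was at 1598 and 1941 CPM in LEC-like cells of both proximal libraries, 1545 and 2054 in distal replicates 1 and 2, 722 for the cecum and 873 for the large intestine. It was higher than in fibroblast-like cells by 2.84 ± 0.33 (adjusted p = 9.76e-05). Blood endothelial-like cells held 342 to 678 CPM of Nrp2, lower than LEC-like cells by -1.47 ± 0.09 (adjusted p = 8.52e-07) and above the 156 to 291 of fibroblast-like cells. Nrp1, the co-receptor of VEGF-A, was at 4.37 to 22.3 CPM in LEC-like cells, against 700 to 1432 in the blood class and 260 to 629 in fibroblast-like cells. A list of 10 genes joined the neuropilins and ligand-processing genes with semaphorins and Ptprb. Of these, 4 were higher and 6 lower in LEC-like than in fibroblast-like cells (31.6% and 36.1% of all genes), with a median log2 difference of -3.29 (-0.06 over all genes tested). Besides Nrp2, the higher ones were Ptprb, which encodes the endothelial phosphatase VE-PTP (7.31 ± 0.32), and the semaphorins Sema3a (6.03 ± 0.56) and Sema3f (2.81 ± 0.36). Sema3c, which also served as a marker of universal fibroblasts in the gate, was among the lower ones (-5.23 ± 0.18).

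Most UMIs of 4 ligands were in fibroblast-like cells, which made up 58.25% to 95.7% of the cells kept in a library. Pgf was divided between fibroblast-like and LEC-like cells. Vegfc, the main lymphatic growth factor, was at 199 and 179 CPM in fibroblast-like cells of proximal replicates 1 and 2, 137 and 213 in distal replicates 1 and 2, 71.4 for the cecum and 88.5 for the large intestine. LEC-like cells held 5.33, 2.63, 4.87, 6.52, 1.56 and 2.18 CPM in that order. The classes did not overlap, and Vegfc was lower in LEC-like cells by -5.28 ± 0.17 (adjusted p = 6.71e-08; -16.39 with free RNA subtracted) in 6 of 6 libraries. Fibroblast-like cells held 94.7% to 98.6% of the Vegfc UMIs assigned to a class, 91.3% to 99.6% of those of Vegfd, 79.5% to 99.1% of those of Vegfa and 71.6% to 95.6% of those of Vegfb. For Pgf the share was 35.6% to 96.7%, with 1.79% to 62.1% in LEC-like cells. LEC-like cells held more Pgf UMIs than fibroblast-like cells in 3 of 6 libraries (both proximal replicates and distal replicate 2) and fewer in the other 3.

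Blood endothelial-like cells were a smaller source with a high level per class. Their Vegfc was at 131 and 170 CPM in both proximal libraries, 126 and 133 in distal replicates 1 and 2 and 71.2 in the large intestine. It was higher than in LEC-like cells by 5.05 ± 0.25 (adjusted p = 2.45e-07), so that of the endothelial classes the one with lower Flt4 had the higher Vegfc. A Vegfc UMI was found in 29.9% to 33.3% of blood endothelial-like cells and in 0.881% to 3.72% of LEC-like cells, beside 1.75% to 6.30% of immune-like cells.

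**Figure D2:**
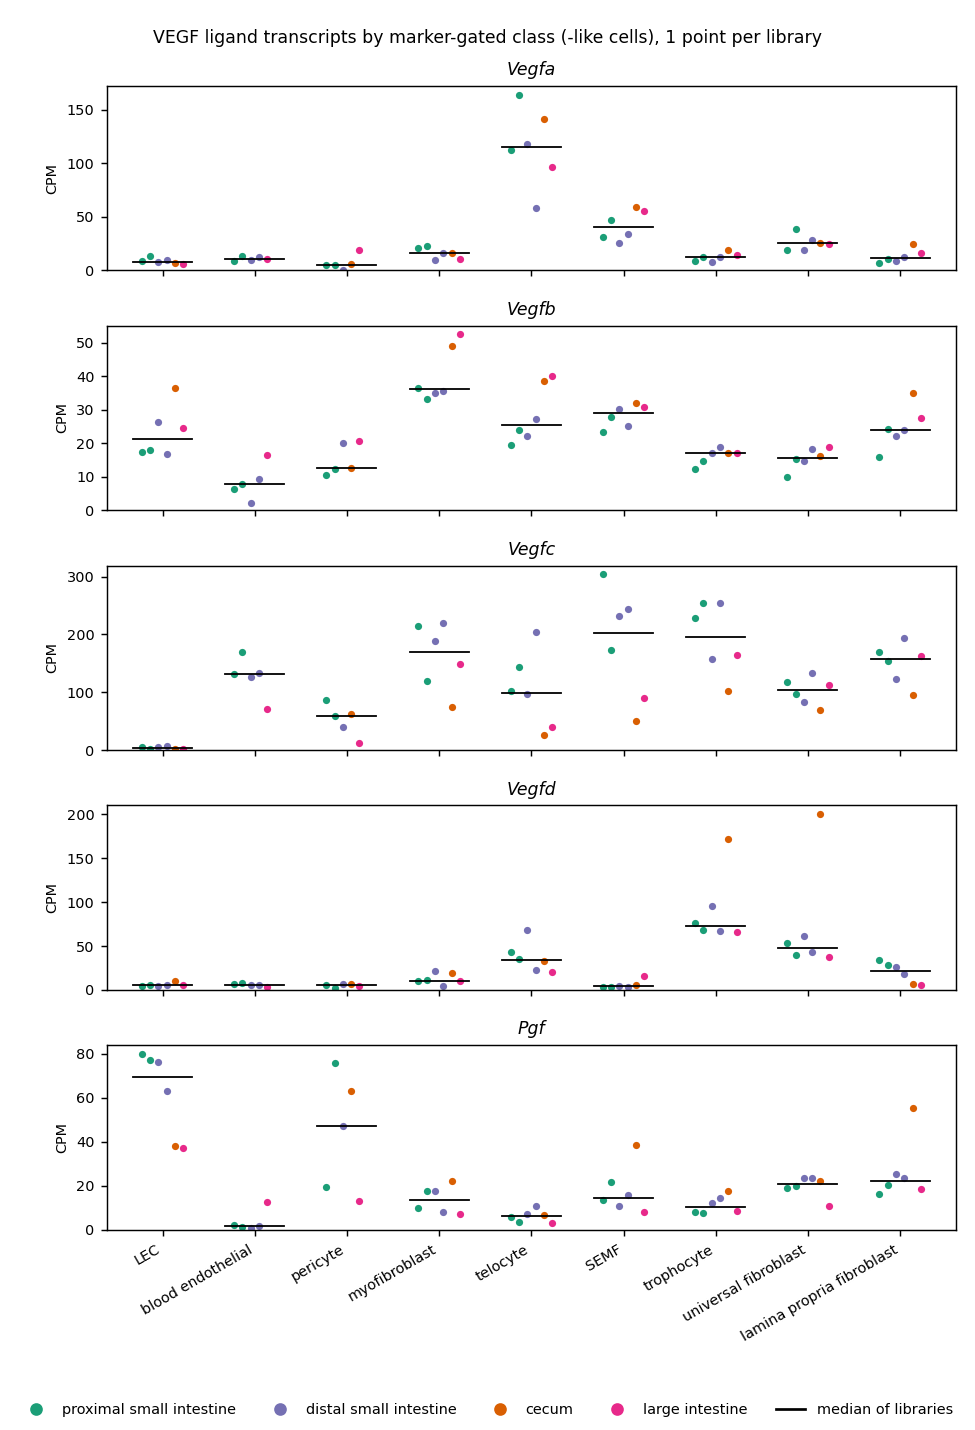
Levels of the 5 ligand transcripts (CPM, axes from 0) in each marker-gated class, with 1 point per library coloured by region and a line at the median. Vegfa is highest in telocyte-like cells (58.5 to 164 CPM), Vegfc spreads over the fibroblast classes, Vegfd is highest in trophocyte-like and universal fibroblast-like cells, and Pgf in LEC-like and pericyte-like cells.

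Vegfd, the other ligand of VEGFR3, was lower in LEC-like than in fibroblast-like cells by -2.79 ± 0.20 (adjusted p = 4.39e-06), at 4.47 to 10.1 against 23.2 to 95.1 CPM, with no overlap. Vegfb did not pass (0.05 ± 0.12, adjusted p = 0.761), with a range of 16.7 to 36.6 in LEC-like and 15.4 to 29.2 in fibroblast-like cells. Vegfb was lower in blood endothelial-like than in LEC-like cells (-1.20 ± 0.27, adjusted p = 0.00440).

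Pgf, placental growth factor and a ligand of VEGFR1 alone, went the other way. In LEC-like cells it was at 79.9 and 77.2 CPM in both proximal libraries, 76.1 and 63.0 in distal replicates 1 and 2, 38.2 for the cecum and 37.1 for the large intestine. Fibroblast-like cells held 7.996 to 29.8, and the classes did not overlap. The difference was 1.91 ± 0.27 (adjusted p = 0.000329). Blood endothelial-like cells held only 0.759 to 12.5 CPM, lower than LEC-like cells by -4.39 ± 0.47 (adjusted p = 4.12e-05). Pgf was thus high in the endothelial class that had little Flt1, its receptor.

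Fibroblast classes differed in which ligand they carried. Vegfa, which drives blood vessel growth and permeability, was at 112 and 164 CPM in telocyte-like cells of proximal replicates 1 and 2, 118 and 58.5 in distal replicates 1 and 2, 141 for the cecum and 97.0 for the large intestine. The other fibroblast-like cells held 10.4 to 29.3, with no overlap. Of 8 members, 2 were higher and 2 lower in telocyte-like cells, where 23.4% of all genes tested passed (8.85% higher, 14.6% lower). Vegfa was higher by 2.39 ± 0.23 (adjusted p = 0.000244) in 6 of 6 libraries, while Vegfc (-0.97 ± 0.19, adjusted p = 0.00623; -0.78 and 0.255 without library as a block) and Pgf (-1.83 ± 0.20, adjusted p = 0.000402) were lower. In the small intestine this class rested on 89 to 183 cells per library, against 710 for the cecum and 3419 for the large intestine.

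SEMF-like cells, which lie under the epithelium, held Vegfa at 26.0 to 59.1 CPM with a median of 40.7, higher than the other fibroblasts by 0.93 ± 0.16 (adjusted p = 0.00349). Of 8 members 2 were higher and 1 lower there, where 45.1% of genes passed (21.3% higher, 23.8% lower). Without library as a block only 1 member was called in this class. Vegfd was the lower one (-3.35 ± 0.52, adjusted p = 0.00239), at 3.48 to 4.60 CPM in the small intestine, 5.86 for the cecum and 16.3 for the large intestine. Vegfb, the other higher one (0.28 ± 0.07, adjusted p = 0.0180), missed the threshold when any of 3 small intestinal libraries (either proximal replicate or distal replicate 1) was left out (adjusted p = 0.0536 to 0.0582).

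In the small intestine the highest Vegfc level of any class was that of SEMF-like cells in proximal replicate 1, at 304 CPM. The class held 174 in proximal replicate 2, and 233 and 244 in distal replicates 1 and 2. Trophocyte-like cells, which lie near the crypts and supply stem cell factors, held 228 and 255, 157 and 254 CPM in the same order. SEMF-like cells were the higher class in 2 of 6 libraries, so the order of these classes was not resolved.

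Trophocyte-like cells had both ligands of VEGFR3. Their Vegfd was at 76.6 and 68.5 CPM in both proximal libraries, 95.7 and 66.8 in distal replicates 1 and 2, 172 for the cecum and 66.1 for the large intestine. Vegfd was higher than in the other fibroblasts by 1.64 ± 0.12 (adjusted p = 5.94e-05) and Vegfc by 0.69 ± 0.09 (adjusted p = 0.000802), each in 6 of 6 libraries. Vegfa (-0.80 ± 0.14, adjusted p = 0.00306), Vegfb (-0.32 ± 0.07, adjusted p = 0.00757) and Pgf (-0.64 ± 0.14, adjusted p = 0.00752) were lower. These were 5 of 8 members, where 43.6% of genes passed (22.3% higher, 21.3% lower). Without library as a block only 1 member was called in this class. In the large bowel only 9.4% of trophocyte-like cells were in the trophocyte cluster and 81.1% in the universal fibroblast cluster.

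Universal fibroblast-like cells, a class named for its presence in many tissues, had 1 member higher and 1 lower where 32.5% of genes passed (16% higher, 16.5% lower). Vegfd was at 37.6 to 61.6 CPM in 5 libraries and at 200 in the cecum. Its difference from the other fibroblasts (0.92 ± 0.30, adjusted p = 0.0485) was lost without any single library but the cecum (adjusted p = 0.0619 to 0.0983). Vegfb was lower (-0.47 ± 0.07, adjusted p = 0.00193). Without library as a block no member was called in universal or lamina propria fibroblast-like cells. In lamina propria fibroblast-like cells Pgf was higher (0.71 ± 0.12, adjusted p = 0.00681), and Vegfa (-0.97 ± 0.16, adjusted p = 0.00563) and Flt1 (-1.60 ± 0.25, adjusted p = 0.00456) were lower, 3 of 8 where 19.5% of genes passed (7.72% higher, 11.8% lower; 1368 against 2084 genes, and 2388 against 2375 by DESeq2). Their Flt1 was at only 0.645 to 3.25 CPM in the small intestine, where free RNA held 29.1 to 102. The other side of that comparison included telocyte-like cells, whose Flt1 is given below.

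Mural cells carried a different set. In pericyte-like cells, which wrap capillaries, Pgf was at 19.5 and 75.7 CPM in both proximal libraries, 47.3 in distal replicate 2, 63.1 for the cecum and 13.3 for the large intestine. It was higher than in fibroblast-like cells of the same library in 5 of 5 libraries, by 1.17 ± 0.23 (adjusted p = 0.00290; 0.0842 without library as a block). Of 8 members 3 were higher and 4 lower, where 34.1% of genes passed (14.2% higher, 19.9% lower). Vegfa was lower by -2.10 ± 0.34 (adjusted p = 0.000854), Vegfc by -1.77 ± 0.28 (adjusted p = 0.000711) and Vegfd by -2.83 ± 0.27 (adjusted p = 2.48e-05; -1.18 by clusters). The fourth lower member was Vegfb (-0.56 ± 0.19, adjusted p = 0.0444), with levels that overlapped those of fibroblast-like cells, and its call was lost in 9 of 15 alternatives (adjusted p up to 0.191). In myofibroblast-like cells, which included smooth muscle, Vegfb was higher at 33.4 to 52.6 CPM (0.81 ± 0.10, adjusted p = 9.63e-05) and Vegfd lower (-1.92 ± 0.17, adjusted p = 7.28e-06), 2 of 8 where 38.3% of genes passed (16.1% higher, 22.2% lower).

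Flt1 outside the endothelium was uneven. In telocyte-like cells it was at 122 and 58.9 CPM in proximal replicates 1 and 2, 151 and 39.9 in distal replicates 1 and 2, 5.70 for the cecum and 2.03 for the large intestine. The small intestinal libraries were all above those of the large bowel, and in 1 library (the large intestine) the class was below the other fibroblasts. The difference from the other fibroblast-like cells was 3.55 ± 0.97 (adjusted p = 0.0264) and missed the threshold when any 1 of the 4 small intestinal libraries was left out (adjusted p = 0.0601 to 0.0878) and with free RNA subtracted (7.96, adjusted p = 0.0810). A Flt1 UMI was found in 1.02% to 27.0% of telocyte-like cells.

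Markers of vessels were also present in these cells. The 7 blood endothelial markers summed to 35.6 to 201 CPM in telocyte-like cells of the small intestine and 6.02 to 39.1 in the large bowel, against 4425 to 4922 in the blood class. Plvap, a diaphragm protein of fenestrated capillaries, made up most of the sum in 5 of 6 libraries and 13.6 of 35.6 CPM in distal replicate 2. Podxl was at 0 to 3.77 CPM in telocyte-like cells against 527 to 906 in the blood class, and Cd300lg at 0 to 2.54 against 203 to 279. The markers were not particular to this class. They summed to 88.9 to 207 CPM in SEMF-like cells of the small intestine and 9.21 to 19.9 in those of the large bowel. Flt1 of small intestinal SEMF-like cells was at 1.79 to 6.88 CPM, or 0.955% to 4.21% of that sum. In telocyte-like cells there it was 40.8% to 124% of the sum. For each 100 Flt1 UMIs there were 38.0 to 44.9 Kdr UMIs in the blood class and 1.96 to 33.8 in telocyte-like cells of the small intestine. The 8 pericyte markers summed to 626 to 1236 CPM in small intestinal telocyte-like cells (636 to 1076 in all fibroblast-like cells there) and 145 to 290 in those of the large bowel, against 8795 to 12465 in pericyte-like cells. What part endothelial or pericyte RNA had in the Flt1 level was not tested.

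Flt1 of pericyte-like cells was at 378 and 2.70 CPM in proximal replicates 1 and 2, 26.6 in distal replicate 2, 110 for the cecum and 112 for the large intestine. The fitted difference from fibroblast-like cells was 4.34 ± 0.62 (adjusted p = 0.000352; 2.77 by clusters and 8.05 with free RNA subtracted), but the level in proximal replicate 2 was within the fibroblast range of 1.35 to 7.40. Proximal replicate 1 also had the highest Kdr, at 199 CPM against 0 to 14.3 in the others, and the highest sum of blood endothelial markers, at 822 against 20.3 to 325. Without it Kdr was no longer called (2.59 ± 0.82, adjusted p = 0.0344 with all libraries; 1.45, adjusted p = 0.182 without). It also missed the threshold without the large intestine (2.21, adjusted p = 0.0569) and with clusters in place of the gate (0.71, adjusted p = 0.139). In the cecum and large intestine 0 and 8.76 Kdr UMIs were found for each 100 Flt1 UMIs in pericyte-like cells, below the 38.0 to 44.9 of the blood class. The small intestinal libraries were above that range, at 52.6 and 200 in proximal replicates 1 and 2 and 53.7 in distal replicate 2. The value of 200 rests on very few UMIs, at 5.40 CPM of Kdr and 2.70 CPM of Flt1. The part of endothelial RNA in these levels was not tested.

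The low Flt4 and Kdr levels of fibroblast-like cells were set beside free RNA. Barcodes with at most 100 UMIs, which hold RNA outside cells, had Flt4 at 155 and 323 CPM in proximal replicates 1 and 2, 45.8 and 378 in distal replicates 1 and 2, 14.3 for the cecum and 16.9 for the large intestine. Fibroblast-like cells of the same libraries held 4.48 and 8.63, 1.59 and 14.2, 0.349 and 0.368. For Flt4 the 6 libraries fell into the same order in both, and LEC-like cells made up 1.74% to 33.4% of the cells. Kdr of free RNA was at 143 and 232 CPM in proximal replicates 1 and 2, 45.4 and 219 in distal replicates 1 and 2, 11.6 for the cecum and 23.0 for the large intestine. Fibroblast-like cells held 5.65 and 5.68, 1.65 and 9.29, 0.923 and 0.518. For Kdr the orders differed: proximal replicate 2 was the highest in free RNA and distal replicate 2 in fibroblast-like cells, and the cecum was below the large intestine in free RNA but above it in fibroblast-like cells. For each 100 UMIs of the 5 LEC markers, small intestinal fibroblast-like cells held 7.78 to 8.86 Flt4 UMIs and LEC-like cells 6.56 to 8.15, while for the cecum and large intestine they were 1.99 and 1.27 against 3.53 and 3.44. For Kdr the small intestinal values were 5.74 to 10.4 against 4.48 to 5.80, and those of the cecum and large intestine 5.27 and 1.79 against 2.88 and 2.06. The Flt4 ratio of fibroblast-like cells was above that of LEC-like cells in each small intestinal library and below it in the large bowel. The Kdr ratios were close in proximal replicate 2 (5.74 against 5.80) and distal replicate 2 (5.81 against 5.50). They were further apart in proximal replicate 1 (10.4 against 4.99) and distal replicate 1 (8.07 against 4.48). The part of free RNA in these levels was not tested.

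**Figure D3:**
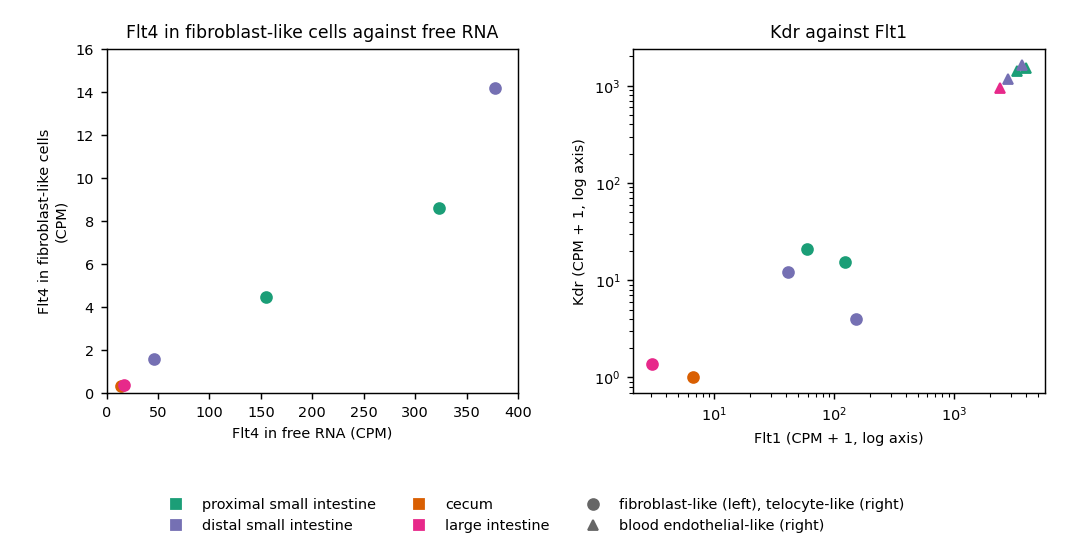
Left, Flt4 in fibroblast-like cells against Flt4 in free RNA (both CPM), with 1 point per library. Right, Kdr against Flt1 (CPM + 1, log axes) in blood endothelial-like (triangles) and telocyte-like cells (circles), with 1 point per library, where the blood class sits at 38.0 to 44.9 Kdr UMIs per 100 Flt1 UMIs.

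No member passed between the proximal and the distal small intestine, with 2 libraries each, when the replicate number was left out of the fit. In LEC-like cells 0 of 15478 genes passed (0% called), with 645 at an unadjusted p under 0.05 and 35 called by DESeq2. Flt1 had the largest fitted difference of the members (1.39 ± 0.28, adjusted p = 0.552), at 13.9 and 10.3 CPM in distal replicates 1 and 2 and 5.64 and 3.42 in the proximal ones. With the replicate number as a block Flt1 was called (1.44, adjusted p = 3.03e-09), as the only member among 325 genes. With so few libraries the variance in that fit was largely borrowed from other genes. Its p-value therefore says little of the spread between libraries. The fitted difference of Flt1 was 0.51 (adjusted p near 1) with doublets kept and 10.69 (adjusted p = 0.100) with free RNA subtracted. Flt1 was called without the filter (1.38, adjusted p = 1.45e-06). Without proximal replicate 1, which left only proximal replicate 2 in that group, the difference was 1.75. Libraries of the same replicate number carried the same set of 3 hashtags, but no source used here says whether they share animals. The groups did not overlap in CPM, and DESeq2 called Flt1 (adjusted p = 0.0206), but these levels are those of a receptor found in 1.76% to 3.45% of the cells. The shares of LEC-like cells with a Flt1 UMI did overlap. They were 2.78% and 2.10% in proximal replicates 1 and 2 and 2.14% and 2.49% in the distal ones. The other members of LEC-like cells had adjusted p-values near 1, and their fitted differences ranged from -0.36 (Vegfa) to 0.59 (Vegfc). In fibroblast-like cells 2 genes passed (0.0104% called, 0.00519% in each direction), none of them a member, with 704 at an unadjusted p under 0.05 and 148 called by DESeq2.

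The large bowel, taken as the cecum and the large intestine with 1 library each, was compared with the 4 small intestinal libraries. Both large bowel libraries carried the same set of hashtags as the small intestinal replicate 1 libraries, and the replicate 2 libraries another set. No source used here says whether libraries with the same tags share animals, and the fit had no block. LEC-like cells had 0 members higher and 3 lower there, where 21.5% of genes passed (10.4% higher, 11.1% lower). Pgf fell by 1.01 ± 0.16 on the log2 scale (adjusted p = 0.00286), from 63.0 to 79.9 CPM in the small intestine to 38.2 and 37.1, and this call held without any single library. Flt4 fell by 0.69 ± 0.14 (adjusted p = 0.0102), from 1053 to 1279 CPM to 747 and 742. Kdr fell by 0.67 ± 0.18 (adjusted p = 0.0268), from 720 to 910 CPM to 609 and 443. None of the 3 overlapped between the regions, and the share of all genes without overlap is not given here.

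The calls of both receptors depended on the libraries. Flt4 missed the threshold without the cecum (-0.75, adjusted p = 0.0544) or without the large intestine (-0.72, adjusted p = 0.0571). Kdr missed it without proximal replicate 1 (-0.65, adjusted p = 0.0738), proximal replicate 2 (-0.58, adjusted p = 0.0736), distal replicate 2 (-0.63, adjusted p = 0.0680) or the large intestine (-0.50, adjusted p = 0.149). Against the small intestinal replicate 1 libraries alone neither passed (Flt4 -0.57, adjusted p = 0.08996; Kdr -0.53, adjusted p = 0.1497). The co-receptor Nrp2 fell further, by 1.19 ± 0.18 (adjusted p = 0.00205), and the phosphatase gene Ptprb fell by 0.68 ± 0.15 (adjusted p = 0.0123). In the list of 10 that holds both, 2 genes were lower and 0 higher (11.1% and 10.4% of all genes). The median log2 change of the list was -0.77 (-0.02 over all genes tested). The sum of the LEC markers went the other way, from 15411 to 16317 CPM in the small intestine to 21189 and 21528.

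Ligands of the fibroblast-like cells changed in both directions. Vegfa rose by 1.43 ± 0.26 (adjusted p = 0.00938), from 13.6 and 23.0 CPM in both proximal libraries and 10.97 and 19.4 in distal replicates 1 and 2 to 35.3 for the cecum and 51.7 for the large intestine. Vegfc fell by 1.13 ± 0.17 (adjusted p = 0.00553), from 137 to 213 CPM to 71.4 and 88.5. Neither overlapped between the regions, and the share of all genes without overlap is not given here. Free RNA moved the same way, with Vegfa at 22.6 to 39.7 CPM in the small intestine against 80.8 and 89.6, and Vegfc at 91.8 to 110 against 55.7 and 66.7, and both calls held with free RNA subtracted. In all 2 members were higher and 3 lower, where 30.3% of genes passed (15.9% higher, 14.4% lower). The others were Vegfb (0.49 ± 0.15, adjusted p = 0.0477), which was lost without either proximal replicate, distal replicate 2, the cecum or the large intestine (adjusted p = 0.0642 to 0.159), and Flt4 (-4.24 ± 0.89, adjusted p = 0.0148) and Kdr (-2.87 ± 0.67, adjusted p = 0.0199), whose low fibroblast levels are given beside free RNA above. The calls of Flt4 and Kdr were lost in 3 and 4 of 14 alternatives, among them without the cecum and without the large intestine (adjusted p up to 0.0717 and 0.0880).

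The change of Vegfa differed between the classes. Vegfa of LEC-like cells was 6.12 to 7.01 CPM in the large bowel and 7.68 to 13.5 in the small intestine (-0.67 ± 0.37, adjusted p = 0.217). With free RNA subtracted it was called there (-9.95, adjusted p = 0.00411). The difference of the regional changes, LEC-like minus fibroblast-like, was -2.11 (adjusted p = 0.00239; -13.14 with free RNA subtracted), and 2 of 8 members passed that test where 10.9% of genes did (4.17% higher, 6.74% lower). The other was Flt4 (3.20, adjusted p = 0.0375), which missed the threshold without either proximal replicate, the cecum or the large intestine (adjusted p = 0.0678 to 0.167), and turned to -0.71 with free RNA subtracted.

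**Figure D4:**
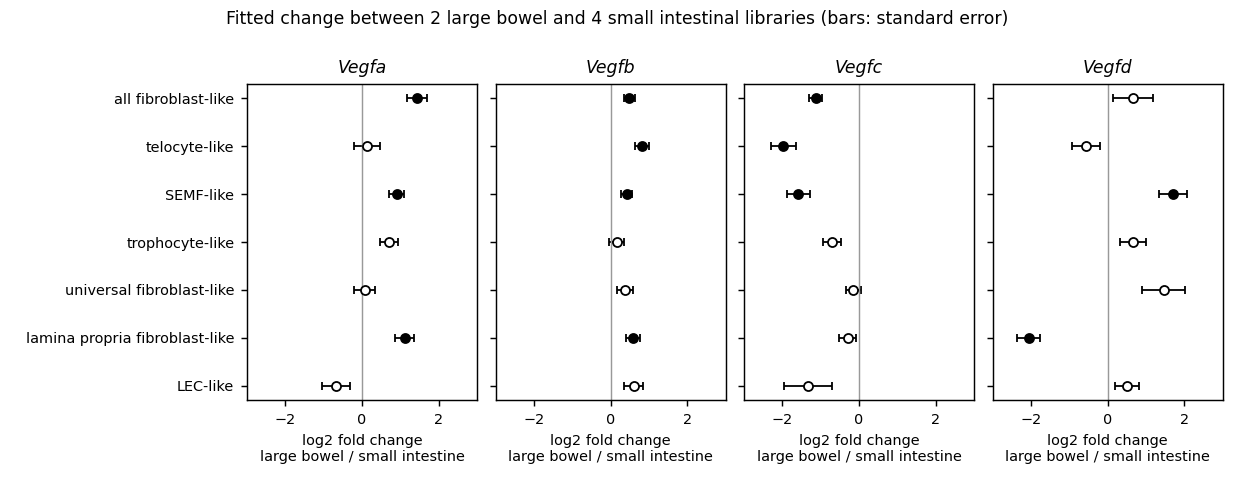
Fitted log2 fold change of the ligands Vegfa, Vegfb, Vegfc and Vegfd between the 2 large bowel and the 4 small intestinal libraries, by class, with bars for the SE and filled points where the adjusted p passed the threshold. Vegfa lies above 0 in SEMF-like and lamina propria fibroblast-like cells and near 0 in telocyte-like cells, while Vegfc lies below 0 in telocyte-like and SEMF-like cells.

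Fibroblast classes make up different shares of the regions, so the change was also fitted within each class, in tests added after the data had been seen. Vegfa of SEMF-like cells rose by 0.90 ± 0.20 (adjusted p = 0.0122), from 26.0 to 47.1 CPM to 59.1 and 55.7, and missed the threshold without the cecum (0.87, adjusted p = 0.0626). In lamina propria fibroblast-like cells it rose by 1.11 ± 0.24 (adjusted p = 0.0120), from 7.15 to 12.5 to 24.5 and 16.01, and missed it without the cecum (0.66, adjusted p = 0.179) and with free RNA subtracted (0.84, adjusted p = 0.108). Telocyte-like cells, the class with the highest Vegfa, showed 0.13 ± 0.33 (adjusted p = 0.805), and universal fibroblast-like cells 0.06 ± 0.27 (adjusted p = 0.893). In trophocyte-like cells the value was 0.70 ± 0.24 (adjusted p = 0.0762), with 7.84 to 12.9 CPM in the small intestine and 13.9 to 18.6 in the large bowel. It was called in 1 of 15 alternatives (doublets kept, adjusted p = 0.0454) and was -0.42 by clusters. Telocyte-like cells made up 5.43% of cecal and 30.6% of large intestinal cells, against 0.467% to 1.17% in the small intestine, and held 2.95% to 63.0% of the Vegfa UMIs assigned to a class in a library. The part of this share in the change over all fibroblast-like cells was not tested.

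Vegfc fell within telocyte-like cells by 1.98 ± 0.32 (adjusted p = 0.00568), from 96.1 to 204 CPM to 26.6 for the cecum and 39.5 for the large intestine. Within SEMF-like cells it fell by 1.58 ± 0.31 (adjusted p = 0.00759), from 174 to 304 to 50.7 and 90.0. Trophocyte-like cells did not pass (-0.71 ± 0.24, adjusted p = 0.0716), nor did lamina propria fibroblast-like (-0.29 ± 0.22, adjusted p = 0.335) or universal fibroblast-like cells (-0.15 ± 0.20, adjusted p = 0.624). Vegfb rose in telocyte-like cells by 0.82 ± 0.18 (adjusted p = 0.0152), from 19.6 to 27.1 CPM to 38.7 and 40.2, and missed the threshold without the large intestine (0.82, adjusted p = 0.0734) and against the small intestinal replicate 1 libraries alone (0.98, adjusted p = 0.0611). In telocyte-like cells 1 of 7 members tested was higher and 4 were lower, where 21.7% of genes passed (11.2% higher, 10.5% lower). In SEMF-like cells 3 of 8 were higher and 4 lower, where 39.7% of genes passed (21.3% higher, 18.4% lower). In trophocyte-like cells 0 of 8 were higher and 0 lower, where 17.9% of genes passed (9.41% higher, 8.49% lower). In universal fibroblast-like cells 0 of 8 were higher and 2 lower, where 7.75% of genes passed (4.12% higher, 3.63% lower). In lamina propria fibroblast-like cells 2 of 8 were higher and 3 lower, where 32.6% of genes passed (16.4% higher, 16.1% lower). Some of these counts rest on calls close to the threshold. The calls in universal fibroblast-like cells were Kdr and Flt4, at under 1 CPM in both large bowel libraries, which were lost in 8 and 6 of 14 alternatives (adjusted p up to 0.245 and 0.152). Vegfb was counted as higher in SEMF-like (0.43 ± 0.14, adjusted p = 0.0469) and lamina propria fibroblast-like cells (0.59 ± 0.19, adjusted p = 0.0443), and each call was lost in 9 of 14 alternatives (adjusted p up to 0.207 and 0.418). In SEMF-like cells Flt4 was lost in 3 and Flt1 in 2 of 13 alternatives, and in lamina propria fibroblast-like cells Kdr and Flt4 in 3 of 13 each.

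Vegfd separated the 2 large bowel libraries. In universal fibroblast-like cells it was at 200 CPM in the cecal library and 37.6 in that of the large intestine, against 39.4 to 61.6 in the small intestine. In trophocyte-like cells it was at 172 and 66.1, against 66.8 to 95.7. With the large intestine left out, the cecum was higher than the small intestine by 2.26 (adjusted p = 0.000675) in universal fibroblast-like and by 1.20 (adjusted p = 0.0229) in trophocyte-like cells, while with both libraries neither passed (adjusted p = 0.132 and 0.1897). That comparison was made after the high cecal value had been seen and has 1 library on the cecal side, so its spread comes from the small intestinal libraries alone. The 3 hashtags of the cecal library were left pooled, so the variation within it was not measured.

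In other classes Vegfd moved in opposite directions. It fell in lamina propria fibroblast-like cells by 2.05 ± 0.30 (adjusted p = 0.00289), from 17.9 to 34.6 CPM to 6.71 and 5.70. It rose in SEMF-like cells by 1.71 ± 0.38 (adjusted p = 0.0120), from 3.48 to 4.60 to 5.86 and 16.3, and the call was lost without the large intestine (0.80, adjusted p = 0.0816), with free RNA subtracted (3.82, adjusted p = 0.102) and against the replicate 1 libraries alone (1.58, adjusted p = 0.0767). Flt1 of telocyte-like cells fell by 4.78 ± 0.69 (adjusted p = 0.00367), beside the fall of the blood endothelial markers given above.

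The classes did not hold the same clusters in both regions. When all cells were clustered, 95.5% of small intestinal SEMF-like cells were in the SEMF cluster, but 88.2% of those of the large bowel were in a fibroblast cluster, number 17, that also held 98.7% of the lamina propria fibroblast-like cells there. Of trophocyte-like cells of the large bowel, 81.1% were in the universal fibroblast cluster. Telocyte-like cells were mostly in 1 cluster in both regions (61.9% and 84.9%), and LEC-like cells almost wholly (99.4% and 99.2%). The regional values within SEMF-like, trophocyte-like and lamina propria fibroblast-like cells, and within universal fibroblast-like cells (47.5% in the trophocyte cluster in the small intestine, 83.3% in the universal cluster in the large bowel), therefore compare cells of different clusters. The comparisons of these classes with the other fibroblasts join both regions. Their libraries therefore do not repeat the same cluster of cells.

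Genes that answer low oxygen, of which Vegfa is one, were followed as a list of 11. It also held Hif1a and Epas1, which encode hypoxia-inducible factors themselves. Ca9, also on the planned list, was left out. In fibroblast-like cells 7 were higher and 0 lower in the large bowel, where 15.9% of all genes were higher and 14.4% lower, with a median log2 change of 0.59 (-0.01 over all genes tested). The largest changes were those of Ankrd37 (3.05 ± 0.49, adjusted p = 0.00652), the glucose transporter Slc2a1 (2.46 ± 0.13, adjusted p = 0.000240) and the glycolytic enzymes Ldha (1.32 ± 0.13, adjusted p = 0.00140) and Pgk1 (0.91 ± 0.14, adjusted p = 0.00526). Of the same 11 genes, 7 were higher and 0 lower in SEMF-like cells (21.3% and 18.4% of all genes) and in lamina propria fibroblast-like cells (16.4% and 16.1%). In trophocyte-like cells 5 were higher and 0 lower (9.41% and 8.49% of all genes), and in telocyte-like cells 3 and 0 of 10 tested (11.2% and 10.5%). Universal fibroblast-like cells had 2 higher and 0 lower of 10 tested (4.12% and 3.63%), and LEC-like cells 2 higher and 4 lower (10.4% and 11.1%).

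Promoter stretches of these changed genes are shown because they carry the letters ACGTG, the core of the element that hypoxia-inducible factors bind, in capitals. The stretches are RefSeq promoter sequence (250 bases before to 50 after the start) placed on GRCm39 by exact match, and each is on the strand of its gene.
Slc2a1, chr4:118965896-118965920, plus strand: cccgccccggACGTGctccccaggc
Pgk1, chrX:105230546-105230570, plus strand: gtcgtgcaggACGTGacaaatggaa
Ldha, chr7:46495171-46495195, plus strand: cccagcctacACGTGggttcccgca
Ankrd37, chr8:46452879-46452903, minus strand: gtgtttgggtACGTGaggccgcagc

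ACGTG was searched on both strands, and it overlaps the palindrome CACGTG. It was present in 7 of the 9 listed promoters that the table holds, that of Hif1a among them, and in 19.6% of all 32851 promoters. The list was chosen for genes known to answer low oxygen, so a high share was likely beforehand. Whether low oxygen had a part in the regional change of Vegfa or of these genes was not tested. The Vegfa promoter had no match, which says only that these letters are not in this window.

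Other genes of the pathway moved with the ligands in part. Ccbe1 and Adamts3, whose products allow VEGF-C to be cut to its active form, were both lower in LEC-like than in fibroblast-like cells (-5.44 ± 0.20 and -2.68 ± 0.16). Adamts3 was higher in SEMF-like cells than in the other fibroblasts (2.34 ± 0.42, adjusted p = 0.00444) and in telocyte-like cells (1.01 ± 0.24, adjusted p = 0.0151). In the large bowel Ccbe1 fell over all fibroblast-like cells by 1.97 ± 0.28 (adjusted p = 0.00476), within SEMF-like cells by 4.39 ± 0.41 (adjusted p = 0.000675) and within telocyte-like cells by 3.42 ± 0.53 (adjusted p = 0.00482). Over the list of 10, 3 were higher and 4 lower in fibroblast-like cells of the large bowel (15.9% and 14.4% of all genes), with a median log2 change of -0.35.

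Endothelial genes known to be induced by VEGF were compared as a list of 10. In LEC-like against fibroblast-like cells 6 were higher and 3 lower (31.6% and 36.1% of all genes), led by the Notch ligand Dll4 (7.03 ± 0.37, adjusted p = 7.46e-07) and Angpt2 (6.21 ± 0.27, adjusted p = 2.68e-07). The list was chosen from endothelial genes, so this comparison does not bear on an answer to VEGF. In blood endothelial-like against LEC-like cells 8 were higher and 2 lower (29.7% and 28% of all genes), with a median log2 difference of 2.54 (-0.003 over all genes tested). Esm1 (9.38 ± 0.24, adjusted p = 7.64e-09) and the peptide Apln (8.36 ± 0.25, adjusted p = 1.90e-08) led, and Angpt2 was lower (-1.71 ± 0.33, adjusted p = 0.00174). These classes are different cell types, so this comparison does not bear on an answer to VEGF either. In LEC-like cells of the large bowel 1 of 7 tested was higher and 2 were lower (10.4% and 11.1% of all genes), among them Angpt2 (-1.23 ± 0.27, adjusted p = 0.0124).

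The loci of the members lie on GRCm39, the build of the matrices: Vegfa at chr17:46327919-46343309, Vegfb at chr19:6958447-6965127, Vegfc at chr8:54530257-54640131, Vegfd at chrX:163156240-163185646, Pgf at chr12:85213409-85224564, Flt1 at chr5:147498414-147662826, Kdr at chr5:76093487-76139884 and Flt4 at chr11:49500090-49543582. No annotated gene on the same strand overlapped a member, and 6 of 8 overlapped a gene on the other strand.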

How the data were processed

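Single-cell RNA sequencing by droplet capture was measured in 6 libraries. The deposited values are raw UMI counts per gene and barcode, made by the authors with Cell Ranger (8.1.0 in the processing notes, 8.0.1 in the matrix header) on the mouse genome with the tdTomato sequence added, with unfiltered barcodes. The study's own doublet and free RNA removal is not in these matrices. Its removal of contaminant clusters by tdTomato transcript was not repeated. A barcode counted as a cell when it had 1000 to 7500 genes, a total of 2500 to 40000 UMIs and a mitochondrial share below 10%, and Scrublet (in scanpy 1.11.5) removed predicted doublets at 0.8% per 1000 cells (4.91% to 11.4% per library). Barcodes with at most 100 UMIs gave the free RNA profile.

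Cells were gated on marker scores (lineage score of at least 0.25, margin 0.1, at least 3 markers detected; fibroblast classes with z of at least 0.5, margin 0.25, at least 2 markers). Counts were summed per library and class of at least 20 cells, filtered by filterByExpr (minimum count 10), scaled by TMM and tested with edgeR 4.0.16 in R 4.3.3, with library as a block between classes and no block between regions; the threshold was an adjusted p of 0.05 over all genes. The 14 planned and 5 added tests were rerun with DESeq2 1.42.0, limma-voom (limma 3.58.1), RLE factors, no filter, doublets kept, 10% free RNA subtracted, Leiden clusters (18), a stricter gate, each library left out, the block added or dropped and only the small intestinal libraries of replicate 1. Where the subtracted free RNA exceeded a sum, the sum was left without counts. The test was tried on simulated data. Exact binomial intervals cover counting error only. The named genes are the 8 members, up to 4 genes with the largest fold past the threshold in each pathway list, listed co-receptors by level and the 3 genes most alike each member. Members and lists were chosen with earlier results of these data known. Promoters are RefSeq sequence from a GRCm38.p6 table, placed on GRCm39 by exact match.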

Additional observations from a re-analysis of the deposited data

Results flagged for a closer look

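In 63 levels of a member in a class with 4 small intestinal libraries, 2 had a library far from the other 3, where chance gives about 1 in 20. Vegfb of LEC-like cells was at 26.2 CPM in distal replicate 1 against 16.7 to 18.0 in the others. Vegfc of blood endothelial-like cells was at 170 in proximal replicate 2 against 126 to 133.

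The change between large bowel and small intestine differed between LEC-like and fibroblast-like cells for Vegfa (-2.11, adjusted p = 0.00239 by edgeR's quasi-likelihood test of the interaction) and for Flt4 (3.20, adjusted p = 0.0375). Vegfa was lower in both large bowel libraries than in all 4 small intestinal ones in LEC-like cells and higher in both in fibroblast-like cells. With free RNA subtracted the Vegfa value was -13.14 and that of Flt4 -0.71, and Vegfa was called as lower in LEC-like cells of the large bowel (-9.95, adjusted p = 0.00411 against 0.217). The subtraction left no Vegfa counts in those cells and no Flt4 counts in fibroblast-like cells. These values therefore follow from the assumed share of free RNA.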

How the results depend on the processing

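Of the members' log2 differences under the alternatives, 1978 stayed on the same side of the threshold, 126 lost their call and 72 gained one. Another 3 changed sign with a call in at least 1 of the fits compared. Values called in neither fit could change sign and still count among the 1978. Flt4 of distal against proximal fibroblast-like cells did so, at -1.92 to 1.09. Vegfc of lamina propria fibroblast-like cells was -0.36 (adjusted p = 0.00327) by clusters. With free RNA subtracted, Flt1 in fibroblast-like cells of the large bowel was 10.28 and the Flt4 difference of regional changes -0.71. Where 10% of free RNA exceeded a class level the subtraction left no counts, so sizes resting on such levels follow from the assumed share. Other fitted sizes also moved under that alternative, among them those of Flt1 in distal against proximal LEC-like cells (10.69) and the Flt1 difference of regional changes (-9.90), neither of them called in the comparison as reported. Of the called ones, Vegfc of blood endothelial-like against LEC-like cells was 13.69, Vegfd of LEC-like against fibroblast-like cells -4.28, Vegfd of SEMF-like cells -5.75 and that of lamina propria fibroblast-like cells of the large bowel -4.30.

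Members called moved by over 1.5 times as follows. Myofibroblast-like cells had 2, and 4 by clusters (2 to 4 with each library left out, 4 without the large intestine). SEMF-like cells had 3, and 5 with doublets kept. Universal fibroblast-like cells had 2, and 1 without the filter, 1 with free RNA subtracted and 0 by clusters (1 to 5 with a library left out, 5 without the cecum). Lamina propria fibroblast-like cells had 3, and 5 by DESeq2, 5 with doublets kept and 7 by clusters. Distal against proximal LEC-like cells had 0, and 1 by DESeq2 and 1 without the filter (0 to 1, with 1 without proximal replicate 1). The large bowel had 3 in LEC-like cells, and 1 against replicate 1 libraries only (1 to 4, with 1 without the large intestine), and 5 in fibroblast-like cells, and 3 by limma-voom, 3 with free RNA subtracted and 3 against replicate 1 libraries only (2 to 5, with 2 without the cecum). Within the fibroblast classes the large bowel had 5 in telocyte-like cells, and 3 with free RNA subtracted and 2 against replicate 1 libraries only; 7 in SEMF-like cells, and 2 with free RNA subtracted, 4 against replicate 1 libraries only and 3 without the cecum; 0 in trophocyte-like cells, and 2 by DESeq2, 1 without the filter, 2 with doublets kept, 1 with free RNA subtracted and 2 without distal replicate 1 or the large intestine; 2 in universal fibroblast-like cells, and 0 by limma-voom, 0 with free RNA subtracted, 1 by clusters, 0 against replicate 1 libraries only, 0 without either proximal replicate or distal replicate 2 and 1 without the cecum; and 5 in lamina propria fibroblast-like cells, and 2 by limma-voom, 1 with free RNA subtracted and 1 without the cecum. By clusters this test gave no value in SEMF-like and lamina propria fibroblast-like cells. The difference of regional changes had 2, and 1 by limma-voom (1 to 3, with 1 without either proximal replicate, the cecum or the large intestine).

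Without the replicate block (library), 1 member was called in SEMF-like cells, 1 in trophocyte-like, 0 in universal and 0 in lamina propria fibroblast-like cells, and genes called fell from 3996 to 2318 (telocyte-like), 7812 to 3803 (SEMF-like), 7627 to 2553 (trophocyte-like), 5533 to 1584 (universal) and 3452 to 613 (lamina propria). Proximal and distal libraries of the same replicate number share that number and a set of hashtags, and no source used here says which tag marks which animal (correlation of deviations 0.223 in LEC-like, 0.340 in fibroblast-like cells). A replicate block there called 1 member in LEC-like cells, and 325 genes against 0, and 237 against 2 in fibroblast-like cells. With so few libraries the variance in these fits was largely borrowed from other genes.

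Other gene counts also moved. Lamina propria fibroblast-like cells gave 6157 by clusters. Distal against proximal, LEC-like cells gave 0 genes, and 35 by DESeq2 and 203 without the filter; fibroblast-like cells gave 2, and 148 by DESeq2, 25 without the filter, 0 by limma-voom and 0 with doublets kept. Against replicate 1 libraries only, the large bowel gave 1507 genes against 3016 in LEC-like, 1544 against 6008 in fibroblast-like, 632 against 2339 in telocyte-like, 2701 against 6104 in SEMF-like, 976 against 2884 in trophocyte-like, 61 against 1070 in universal and 2222 against 5308 in lamina propria fibroblast-like cells. Trophocyte-like cells gave 1767 by limma-voom and 182 by clusters, and universal fibroblast-like cells 1872 by DESeq2, 2095 without the filter, 1669 with doublets kept and 513 with free RNA subtracted. With a library left out the universal count ranged from 142 (without proximal replicate 1) to 3527 (without the large intestine), and without the cecum the counts were 1205 in LEC-like and 608 in trophocyte-like cells. The difference of regional changes gave 1950 genes, and 1061 without the library block. The cecum and large intestine are 1 library each with 3 hashtags left pooled, so variation within them was not measured.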

Other observations

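Over the means of 12 classes and 10479 genes, the genes whose pattern of log2(CPM + 5) was most like that of a member are given as a description, since the classes share libraries and depth. Kdr was most like Mmrn2 (Pearson r = 0.996), Depp1 and Acer2, and Flt4 most like Aqp1 (0.995), Gpr182 and Nexmif. Flt1 was most like Eif2ak4 (0.967). Among the ligands, Vegfa was most like Tmem158 (0.960), Vegfd A830012C17Rik (0.960), Vegfb Ankra2 (0.949), Vegfc Gstm2 (0.941) and Pgf Thy1 (0.900).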
